A study of Mus musculus with 6 samples.

Results

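Mouse chromosome 7 was described through its 500 kb bins in Hi-C maps of C2C12 muscle cells. The bins were those named chr7 whose diagonal value was above 0.5 in all 3 deposited matrices, and 265 of the 291 chr 7 bins met this rule, among 4727 autosomal bins that met it and 5455 bins in the files. The diagonal was 1 in every bin kept and 0 in at least 1 matrix in every bin left out. C2C12 is an established myoblast line derived from thigh muscle of C3H mice, and Hi-C counts how often pairs of DNA segments are ligated to each other after cross-linking, here after digestion with HindIII. The groups were proliferating myoblasts at day 0, myotubes at day 3 of differentiation without AraC, and AraC-treated myotubes at day 7, which received 10 µg/ml of AraC (cytosine arabinoside, which kills dividing cells) from day 3. They are also called day 0, day 3 and day 7 below, and values given in a row of 3 follow this order. Each group had 2 biological replicates, which the authors pooled into a single matrix. Every value below thus has n = 1 per condition, no spread between replicates and no test between conditions. The paper reports a lower correlation between the myoblast replicates than between the replicates of either myotube group. It also reports that the pooled libraries differed in their number of read pairs. The day 3 cultures still held myoblasts, and each value averages over the cells of a culture. A different share of myoblasts and a different folding within cells cannot be told apart. No group was at day 7 without AraC, so AraC and the longer culture cannot be told apart either.

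In interphase nuclei, chromosomes separate into A compartments, which are open, gene-rich and transcribed, and B compartments, which are compact, gene-poor and often lie at the nuclear lamina. Regions of a compartment meet others of the same kind more often than regions of the opposite kind, also over long distances and between chromosomes. The first principal component (PC1) of a map of interaction correlations separates both kinds. Mouse chr 7 carries large receptor gene clusters for smell and pheromones, imprinted domains (where only the copy from a given parent is active) and many muscle genes, such as Myod1, which encodes a transcription factor that sets muscle identity.

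PC1 was computed from the correlation coefficients between chr 7 bins, separately in each condition, with its sign set so that positive values (A) went with the count per bin of transcription start sites (TSSs) of protein-coding genes. It was then divided by its SD over the chr 7 bins, and this scaled PC1 is the value given below. A bin changed sign where PC1 was above 0 in one condition and below 0 in another. No gene expression was used, and a gene is given the value of the bin that holds its start, so genes of the same bin share a value.

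The 250 bases before the annotated start of 6 genes are shown (RefSeq, GRCm38.p6, each on the strand of the gene, 5′ to 3′), because they stand for the bins of the largest differences and for long A and B runs. The capitals mark CpG dinucleotides. Cd81 (chr7:143052500-143052749, plus strand), a tetraspanin gene, lies in the bin with the largest positive difference, and Cebpa (chr7:35119043-35119292, plus strand), which encodes a transcription factor of fat, liver and myeloid cells, in the bin with the largest negative difference. Pold3 (chr7:100121503-100121752, minus strand), a subunit of DNA polymerase delta, and Mylpf (chr7:127211358-127211607, plus strand), the fast skeletal regulatory myosin light chain, lie in long A runs. Plk1 (chr7:122159185-122159434, plus strand), a mitotic kinase, and the olfactory receptor gene Olfr568 (chr7:102876872-102877121, plus strand) lie in long B runs.
Cd81: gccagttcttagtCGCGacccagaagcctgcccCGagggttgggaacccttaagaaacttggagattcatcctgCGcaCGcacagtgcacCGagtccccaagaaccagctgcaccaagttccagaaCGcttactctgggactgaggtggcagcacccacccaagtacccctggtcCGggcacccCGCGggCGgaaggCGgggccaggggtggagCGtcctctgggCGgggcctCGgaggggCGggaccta
Cebpa: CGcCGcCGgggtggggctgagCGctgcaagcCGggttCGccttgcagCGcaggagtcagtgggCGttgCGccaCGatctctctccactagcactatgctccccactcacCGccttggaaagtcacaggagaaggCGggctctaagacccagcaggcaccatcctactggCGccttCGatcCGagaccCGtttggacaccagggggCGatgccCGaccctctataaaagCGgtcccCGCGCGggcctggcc
Pold3: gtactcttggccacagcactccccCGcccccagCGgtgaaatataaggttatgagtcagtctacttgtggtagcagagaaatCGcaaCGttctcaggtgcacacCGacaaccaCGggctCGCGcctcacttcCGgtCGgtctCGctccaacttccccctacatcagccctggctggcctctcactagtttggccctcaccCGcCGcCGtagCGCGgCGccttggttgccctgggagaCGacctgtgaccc
Mylpf: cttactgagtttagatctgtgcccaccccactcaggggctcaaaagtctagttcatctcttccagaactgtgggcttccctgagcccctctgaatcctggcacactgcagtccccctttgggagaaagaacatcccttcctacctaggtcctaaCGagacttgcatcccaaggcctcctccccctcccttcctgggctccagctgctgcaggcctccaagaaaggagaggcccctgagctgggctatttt
Plk1: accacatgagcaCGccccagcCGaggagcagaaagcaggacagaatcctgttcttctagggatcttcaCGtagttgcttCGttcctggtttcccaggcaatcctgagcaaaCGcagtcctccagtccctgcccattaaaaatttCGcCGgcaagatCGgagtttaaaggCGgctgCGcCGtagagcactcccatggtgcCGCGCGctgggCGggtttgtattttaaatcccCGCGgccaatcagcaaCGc
Olfr568: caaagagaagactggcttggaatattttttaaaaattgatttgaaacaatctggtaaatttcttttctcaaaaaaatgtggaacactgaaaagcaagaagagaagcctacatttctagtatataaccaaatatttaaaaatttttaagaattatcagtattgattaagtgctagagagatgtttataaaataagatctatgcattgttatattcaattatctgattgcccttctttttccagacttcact

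The windows held 16 CpGs in Cd81, 22 in Cebpa, 18 in Pold3, 1 in Mylpf, 18 in Plk1 and 0 in Olfr568. A window rich in CpG thus occurred in B (Plk1) and a window poor in CpG in A (Mylpf). Of 2023 protein-coding genes annotated on chr 7, 1651 had a promoter in the RefSeq table. The median number of CpGs was 12 in 695 promoters of bins in A in all 3 conditions, 2 in 723 promoters of bins in B in all 3 and 12 in 143 promoters of bins that changed sign. Among the promoters in B, 255 of receptor genes had a median of 1 CpG and 468 of other genes a median of 6. The sequence CAGCTG reads the same on both strands and is a form of the E-box that myogenic factors can bind. It was present in 13.2% of the promoters in A, 8.71% of those in B and 10.5% of all 1651. Within B it was present in 4.71% of the receptor promoters and 10.9% of the others. The windows in A also had a higher GC content (median 57.2% against 47.2% in B). Within B the median was 35.6% for receptor genes and 54% for others. The part of base composition in these differences was not tested.

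Bins in A made up 38.1% of chr 7 in myoblasts (101 of 265), 34.0% in myotubes (90) and 32.5% in AraC-treated myotubes (86). In all 3 conditions 81 bins were in A and 157 in B, so that 27 bins (10.2%) changed sign in at least 1 pair of conditions. Sign changes in each pair are set beside those of all autosomal bins below. PC1 explained 40.0% of the variance of the chr 7 block at day 0, 71.3% at day 3 and 60.4% at day 7. The median among the other 18 autosomes was 38.3%, 71.3% and 63.7%, so these differences between conditions were not particular to chr 7. The highest scaled PC1 was 2.69, 2.44 and 2.47 in this order of conditions and the lowest was -1.39, -1.35 and -1.30. The landscape was therefore one of a few tall A peaks over a broad, shallow B floor. Across the 265 bins, PC1 in myoblasts correlated with PC1 in myotubes at r = 0.971 and with PC1 in AraC-treated myotubes at r = 0.958, and PC1 in myotubes with that in AraC-treated myotubes at r = 0.992. These coefficients describe neighbouring bins of single pooled maps, which are not independent.

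**Figure D1:**
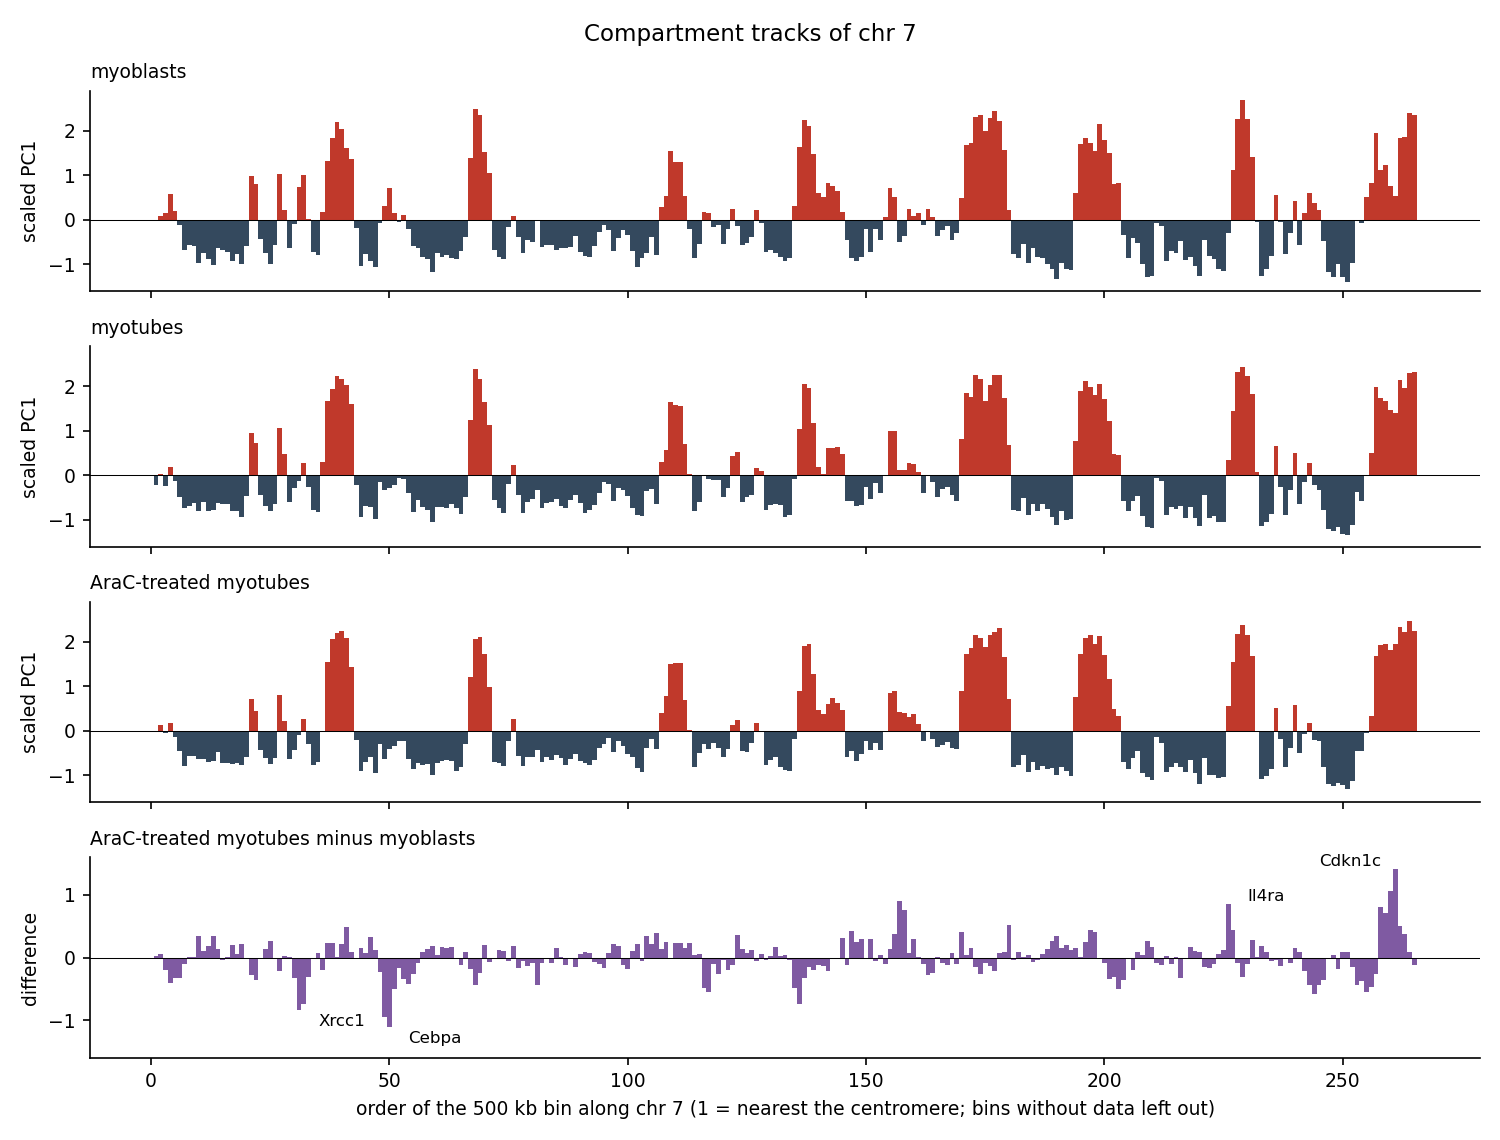
Scaled PC1 of the 265 chr 7 bins in order along the chromosome, in myoblasts, myotubes and AraC-treated myotubes (red bars above 0, A compartment; dark bars below 0, B compartment), and the difference between AraC-treated myotubes and myoblasts. The same 8 long A peaks stand in all 3 tracks, and the largest differences lie at Cdkn1c (1.42) and Cebpa (-1.11).

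Bins in A in all 3 conditions formed 21 runs, and 8 runs of 5 or more bins held 63 of the 81 bins. The longest covered 11 bins at chr7:97000001-102500000, with 95 TSSs and a mean scaled PC1 of 1.75 at day 0, 1.77 at day 3 and 1.79 at day 7. It contains Serpinh1, a collagen chaperone, Pak1, a kinase of the actin cytoskeleton, and Pold3, whose bin had values of 2.29, 2.03 and 2.15. A run of 10 bins at chr7:109500001-114500000 carried Tead1, a transcription factor that binds muscle promoters (1.80, 1.70 and 1.70), and Parva, an actin-binding adhesion protein (2.15, 2.06 and 2.14). Its mean scaled PC1 was 1.45 in each of the 3 conditions, so this run stood equally high relative to the spread of PC1 in each condition.

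The run at chr7:126000001-128500000 held 111 TSSs in 5 bins and the bin with the highest mean over the conditions, chr7:127000001-127500000 with Mylpf (2.69, 2.44 and 2.37). In the same run lay Aldoa, a glycolytic enzyme of muscle (2.26, 2.31 and 2.18), and Atp2a1, the calcium pump of fast muscle (1.11, 1.45 and 1.55). The run at chr7:44500001-47000000 held 114 TSSs in 5 bins. Myod1 lay in its bin chr7:46000001-46500000, at 1.51 at day 0, 1.65 at day 3 and 1.72 at day 7. The glycogen synthase gene Gys1 and Hrc, a calcium-binding protein of the sarcoplasmic reticulum, shared the bin with the third highest mean (2.49, 2.38 and 2.06). Ryr1, the calcium release channel of skeletal muscle, lay at 2.04, 2.17 and 2.25 in a run of 6 bins at chr7:27500001-30500000. Mef2a, a muscle transcription factor, lay at 1.30, 1.56 and 1.53 in a run at chr7:65000001-68000000 with only 22 TSSs in 6 bins. These examples were taken from runs that were in A in all 3 conditions, so each was in A in myoblasts by that choice. Their day 0 values lay between 1.11 and 2.69.

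Of 31 genes of muscle contraction and metabolism on chr 7, 27 were in A in all 3 conditions, 4 were in B in all 3 and none changed sign, whereas of all 1903 protein-coding genes in bins with data 864 were in A in all 3, 873 in B in all 3 and 166 changed sign. Their median scaled PC1 was 1.24 at day 0, 1.45 at day 3 and 1.44 at day 7, beside 0.161, -0.129 and -0.0972 over all 1903. The 4 in B were Csrp3, a Z-disc protein (-0.173, -0.186 and -0.231), Ilk, a kinase of cell adhesions (-0.849, -0.638 and -0.791), Sox6, a repressor of slow fibre genes (-0.532, -0.474 and -0.443), and Bnip3, a mitophagy receptor (-0.981, -1.12 and -1.13). The troponin genes Tnni2 and Tnnt3 shared a bin that was at 1.24, 1.66 and 1.95, while Tnnt1 and Tnni3 shared a bin at 0.579, 0.183 and 0.177. Both pairs remained in A, and their values differed from myoblasts in opposite directions. The 1903 genes, to which other lists are compared below, include 328 olfactory and vomeronasal receptor genes. Most of these receptor genes were in B, which raises the share in B of this background.

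Of 19 cell cycle and replication genes, 11 were in A in all 3 conditions, 7 in B in all 3 and 1, the Fanconi anaemia gene Fanci, changed sign, beside 864, 873 and 166 of the 1903 genes. Ccnd1, the G1 cyclin D1, had one of the highest values of the chromosome at 2.39, 2.29 and 2.47. Plk1 (-1.04, -0.952 and -0.943) and Mki67, the proliferation antigen Ki-67 (-0.467, -0.769 and -0.817), were in B in proliferating myoblasts as well. Scaled PC1 was higher in AraC-treated myotubes than in myoblasts for 5 of the 19, beside 865 of the 1903, with a median difference of -0.142, beside -0.0213 over all genes.

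Bins in B in all 3 conditions formed 31 runs, of which 11 had 5 or more bins and held 107 of the 157 bins. The longest, 22 bins at chr7:114500001-125500000, held 86 TSSs, among them Sox6 and Plk1, and had a mean of -0.78, -0.78 and -0.81. The run of 15 bins at chr7:52000001-59500000 held only 15 TSSs at a GC content of 39.2% and included Ube3a, a ubiquitin ligase imprinted in neurons (-0.225, -0.198 and -0.154). The bins with the 3 lowest means lay in the run at chr7:135500001-140000000. The lowest of all was chr7:138000001-138500000 with Tcerg1l (-1.39, -1.35 and -1.30), followed by a bin without a TSS (-1.29, -1.31 and -1.21) and the bin with Mgmt, a DNA repair enzyme (-1.28, -1.25 and -1.23). The GC content of the bin with Tcerg1l was 45.4%, close to the median of 45.7% in bins that were always in A.

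The most gene-rich B run held a receptor cluster. At chr7:102500001-106000000, 7 bins held 173 TSSs, of which 126 were olfactory or vomeronasal receptor genes, and after a bin without data another 6 bins at chr7:106500001-109500000 held 82 TSSs, of which 68 were such genes, at means of -1.11, -0.93 and -0.90. The 243 olfactory receptor genes of chr 7 lie in 20 bins. Of these genes, 219 were in B in all 3 conditions, 13 in A in all 3 and 11 changed sign. The 11 shared the bin chr7:140000001-140500000, which was at 0.504 at day 0, -0.0199 at day 3 and -0.0480 at day 7, and 8 of the 13 lay in the next bin, at 0.815, 0.502 and 0.338. These receptors sit at the edge of a long A run, and both of these bins had their highest value in myoblasts. The beta-globin genes, which lie within the first olfactory cluster, were at -0.555, -0.510 and -0.541. Of 154 vomeronasal receptor genes, only 84 lay in bins with data, of which 78 were in B in all 3 conditions and 6 changed sign. Bins without data lay in 9 stretches with 120 TSSs, 58.3% of which were receptor genes, beside 17.2% in bins with data, so the chr 7 map leaves out a large part of the pheromone receptors.

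Other gene families are set beside the 873 of 1903 genes that were in B in all 3 conditions. Genes of a family often share bins, so these counts of genes rest on few bins. The kallikreins lie in 2 bins, the Siglec genes in 4, the Ceacam and Psg genes in 10 and the Mrgpr genes in 6. All 26 kallikreins (serine proteases) and all 6 Siglec genes (sialic acid receptors of immune cells) were in B in all 3 conditions, as were 20 of 28 Ceacam and Psg genes (adhesion and pregnancy-specific glycoproteins) and 15 of 19 Mrgpr genes (receptors of sensory neurons). Of 92 Zfp zinc finger genes, 45 were in A, 39 in B and 8 changed sign from A in myoblasts to B in both myotube conditions, a division close to that of all genes (864, 873 and 166 of 1903). Smaller families were counted in the same way, in 7 bins for Trim, 6 for Cyp2 and 10 for Nlrp genes. Of 16 Trim genes (ubiquitin ligases of innate immunity) 14 were in B in all 3 conditions, as were 9 of 15 Cyp2 genes (drug-metabolising enzymes), of which 5 changed sign, and 8 of 11 Nlrp genes with data, of which 1 changed sign. The 4 serum amyloid A genes, all in 1 bin, and the 5 keratin-associated protein genes, all in 1 bin, were in A in all 3. So were 3 of 4 genes of fibroblast growth factors and their receptor. Of 22 neuronal genes 17 were in B in all 3, with medians of -0.429, -0.469 and -0.501. An exception was Dlg2, a scaffold of the postsynapse, whose start was in A at 0.503, 0.991 and 0.885.

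Some A runs ended abruptly. Of 256 pairs of neighbouring bins, 22 held a border between A and B in all 3 conditions, while 48 held one in myoblasts and 38 in each of the myotube conditions. The 4 sharpest borders, chosen after their values were seen, had the same sides in all 3 conditions. At position 109500000, scaled PC1 differed by 1.73, 1.75 and 1.77 between a B run and the first bin of the Tead1 run. That B run holds olfactory receptor genes, but the last genes before the border are others, such as Lmo1 and Stk33. At 47000000, the step from the bin of Ldha, lactate dehydrogenase, to the first Mrgpr cluster was -1.72, -1.67 and -1.67. At 44500000, the step from the last kallikreins to Mybpc2, a myosin-binding protein, was 1.78, 1.73 and 1.50, and at 30500000 the end of the Ryr1 run came with a step of -1.53, -1.81 and -1.64.

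The bin beyond that last border, chr7:30500001-31000000, held 33 TSSs, among them Kmt2b, a histone methyltransferase, at a GC content of 49.7%, and was nevertheless in B at -0.176, -0.208 and -0.194. Counting only genes other than olfactory and vomeronasal receptors, 54 bins held 10 or more TSSs, of which 33 were in A in all 3 conditions, 15 in B in all 3 and 6 changed sign. Several of the 15 held a tandem family (Klk, Psg, Scgb, Acsm or Zfp genes), but others, such as the bin of Ilk and that of Plk1, did not. In the opposite direction, 5 bins without any TSS were in A in all 3 conditions, of 44 such bins.

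The largest positive differences lay inside the last A run, chr7:140500001-145441459, near the distal end of the chromosome. This stretch holds the imprinted cluster with Igf2, a fetal growth factor, Ins2, an insulin gene, Kcnq1, a potassium channel, and Cdkn1c, the cell cycle inhibitor p57. The bin chr7:143000001-143500000 with Cdkn1c, Kcnq1 and Cd81 was at 0.532 at day 0, 1.39 at day 3 and 1.95 at day 7. Its neighbour chr7:142500001-143000000 with Igf2, Ins2 and Ascl2, a transcription factor of the placenta, was at 0.754, 1.48 and 1.82. In both bins scaled PC1 stood in the order day 0, day 3 and day 7, from lowest to highest. The SD by which PC1 was divided was 0.804, 1.50 and 1.19. The order of PC1 before scaling can therefore differ from the order given here, above all between day 3 and day 7. The bins of Cdkn1c and Igf2 had the largest 2 positive differences of scaled PC1 in each of the 3 pairs of conditions. The bin of Tnni2 and Tnnt3 (1.24, 1.66 and 1.95) and the bin of the mucin genes Muc2 and Muc5ac at chr7:141500001-142000000 (1.12, 1.74 and 1.93) had the same order. The order also held in the next 2 bins, at 1.82, 2.14 and 2.32 in the bin of Phlda2 and Nap1l4 and at 1.85, 1.95 and 2.23 in the bin after it, where the differences were smaller than at Cdkn1c. It did not hold at Hras or at the end of the chromosome. The bin with Hras, a GTPase of growth signalling, was at 1.94, 1.99 and 1.68, and the last bin of the chromosome at 2.35, 2.32 and 2.24. The 4 bins from the mucin genes to Cdkn1c thus lay below both neighbouring bins at day 0.

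Imprinted genes elsewhere on chr 7 lay mostly in B. Of 25 imprinted genes, 14 were in A in all 3 conditions, 10 in B in all 3 and 1, Inpp5f, changed sign, beside 864, 873 and 166 of all 1903 genes. Scaled PC1 was higher in AraC-treated myotubes than in myoblasts for 24 of the 25, with a median difference of 0.497, beside 865 of all 1903 genes, but 13 of the 25 start in the 3 bins from Igf2 to Osbpl5. Snrpn, a splicing protein gene of the Prader-Willi domain, was in B at -0.695, -0.571 and -0.482, Ndn with Magel2 at -0.694, -0.738 and -0.584, and Peg3 with Zim1 and Usp29 at -0.577, -0.688 and -0.561.

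**Figure D2:**
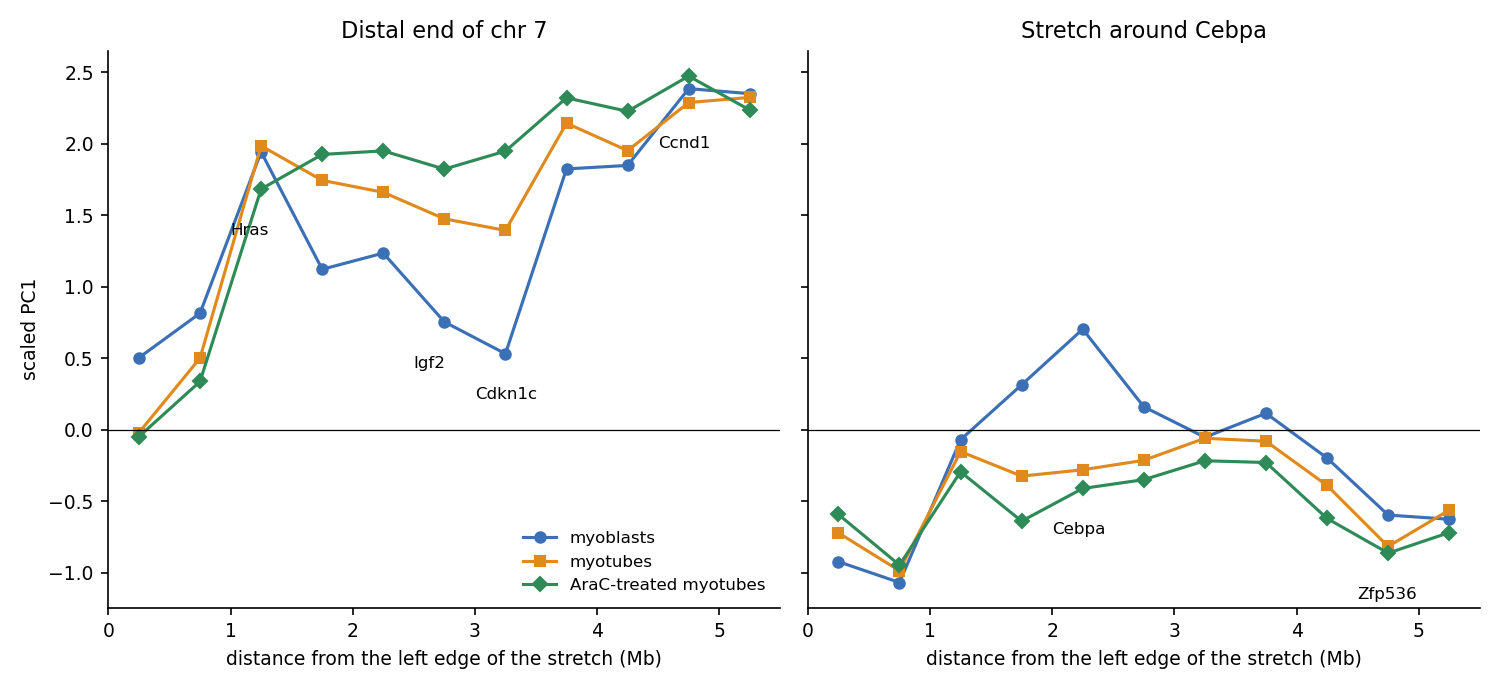
Scaled PC1 of each 500 kb bin against the distance from the left edge of 2 stretches of chr 7, with a line for each condition and selected genes named at their bins. In the distal stretch, the 4 bins that end at Cdkn1c are lowest in myoblasts and highest in AraC-treated myotubes, whereas in the Cebpa bin and the bin on each side of it only the myoblast line stands above 0.

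PC1 was of opposite sign at day 0 and day 3 in 25 of the 265 bins (9.43%), beside 7.28% of all 4727 autosomal bins. Of these, 18 were in A in myoblasts and B in myotubes (6.79%, beside 4.53% of all autosomal bins) and 7 the reverse (2.64%, beside 2.75%). Between myoblasts and AraC-treated myotubes, 25 bins again differed in sign (beside 10.2% of autosomal bins), with 20 from A to B (7.55%, beside 6.49%) and 5 from B to A (1.89%, beside 3.72%). The pattern of A in myoblasts and B in both myotube conditions was found in 18 bins, and the reverse pattern in 5. A scaled PC1 that was lower by 0.5 or more occurred in 9 bins in each comparison with myoblasts (beside 2.98% and 5.9% of autosomal bins), and one that was higher by 0.5 or more in 6 bins of myotubes and 8 of AraC-treated myotubes (beside 3.83% and 7.07%). The shares on chr 7 were not tested against those of the other chromosomes.

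Sign changes lay mostly near 0 and at edges. The median absolute scaled PC1 of the 25 bins in myoblasts was 0.192 and the highest 0.745. In both comparisons, 22 of the 25 lay next to a bin of the other compartment in myoblasts, as did 64 of the 240 bins without a sign change. Only 5 runs had 2 or more neighbouring bins, and the longest had 3. The direction also rests on where 0 is set. When signs were taken relative to the median of the chromosome, 12 bins differed between day 0 and day 3 and 20 between day 0 and day 7, of which only 2 and 6 were among the 25, with equal numbers in each direction because of how the median divides the bins. Among bins whose absolute PC1 was above the 20th percentile of the chromosome in both conditions, 2 and 5 bins changed sign.

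The run of 3 bins was chr7:34500001-36000000, with means of 0.39 at day 0, -0.27 at day 3 and -0.47 at day 7. Its middle bin, chr7:35000001-35500000, held Cebpa and Cebpg, a partner of C/EBP factors, and had the largest negative difference of the chromosome in both comparisons with myoblasts, at 0.703, -0.280 and -0.410. The bin before it, with Kctd15 and Pepd, a prolidase that acts in collagen turnover, was at 0.314, -0.324 and -0.639, and the bin after it, with Ankrd27 and Zfp507, at 0.161, -0.213 and -0.349. All 3 bins were lowest in AraC-treated myotubes. The trans score of the middle bin, defined below, was 0.0314, -0.0735 and -0.0764. It comes from the same matrices and varies closely with PC1, so it is not separate evidence.

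The second largest negative difference between myoblasts and myotubes was at chr7:24500001-25000000, a bin with 22 TSSs including Xrcc1, a scaffold of DNA repair, Ethe1 and Rps19, at 0.745, -0.134 and -0.0972. Its neighbour with Gsk3a and Cic stayed above 0 at 1.00, 0.286 and 0.265, and the bin after it, with Tgfb1, a growth factor that inhibits myogenic differentiation, and the receptor kinase gene Axl, was at 0.0243, -0.251 and -0.283. A second pair of bins from A to B, chr7:134500001-135500000, held Dock1, an activator of Rac that takes part in myoblast fusion, at 0.385, -0.218 and -0.199, and Nps and Foxi2 at 0.208, -0.321 and -0.224. Nr2f2, a nuclear receptor gene also named COUP-TFII, lay in a bin at 0.144, -0.0897 and -0.409. The bin with Fanci and Acan, a cartilage proteoglycan, was at 0.299, -0.0866 and -0.188. A pair of bins without a TSS at chr7:93500001-94500000 also went from a mean of 0.15 in myoblasts to -0.08 and -0.11.

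Among bins from B to A, chr7:125500001-126000000 held Il4ra, the receptor for interleukin 4, a cytokine that recruits myoblasts to growing myotubes, with Il21r and Gtf3c1. It was at -0.297 at day 0, 0.338 at day 3 and 0.561 at day 7. This bin lies between the end of the longest B run (-1.16, -1.05 and -1.04 in the last bin) and the bin of Atp2a1 (1.11, 1.45 and 1.55), so the border of the A run lay 1 bin further out after differentiation. A pair of bins at chr7:90500001-91500000 lies within the body of Dlg2 and holds no TSS. These bins were at -0.495, 0.120 and 0.414 and at -0.359, 0.128 and 0.400. The bin of Rgma, a repulsive guidance molecule, was at -0.130, 0.520 and 0.234, which put myotubes above AraC-treated myotubes.

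Some bins differed by 0.5 or more without a sign change. The bin with Ticrr, a factor that starts DNA replication, was at 1.63 at day 0, 1.04 at day 3 and 0.896 at day 7. It remained in A, at the start of the run with Blm.

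**Figure D3:**
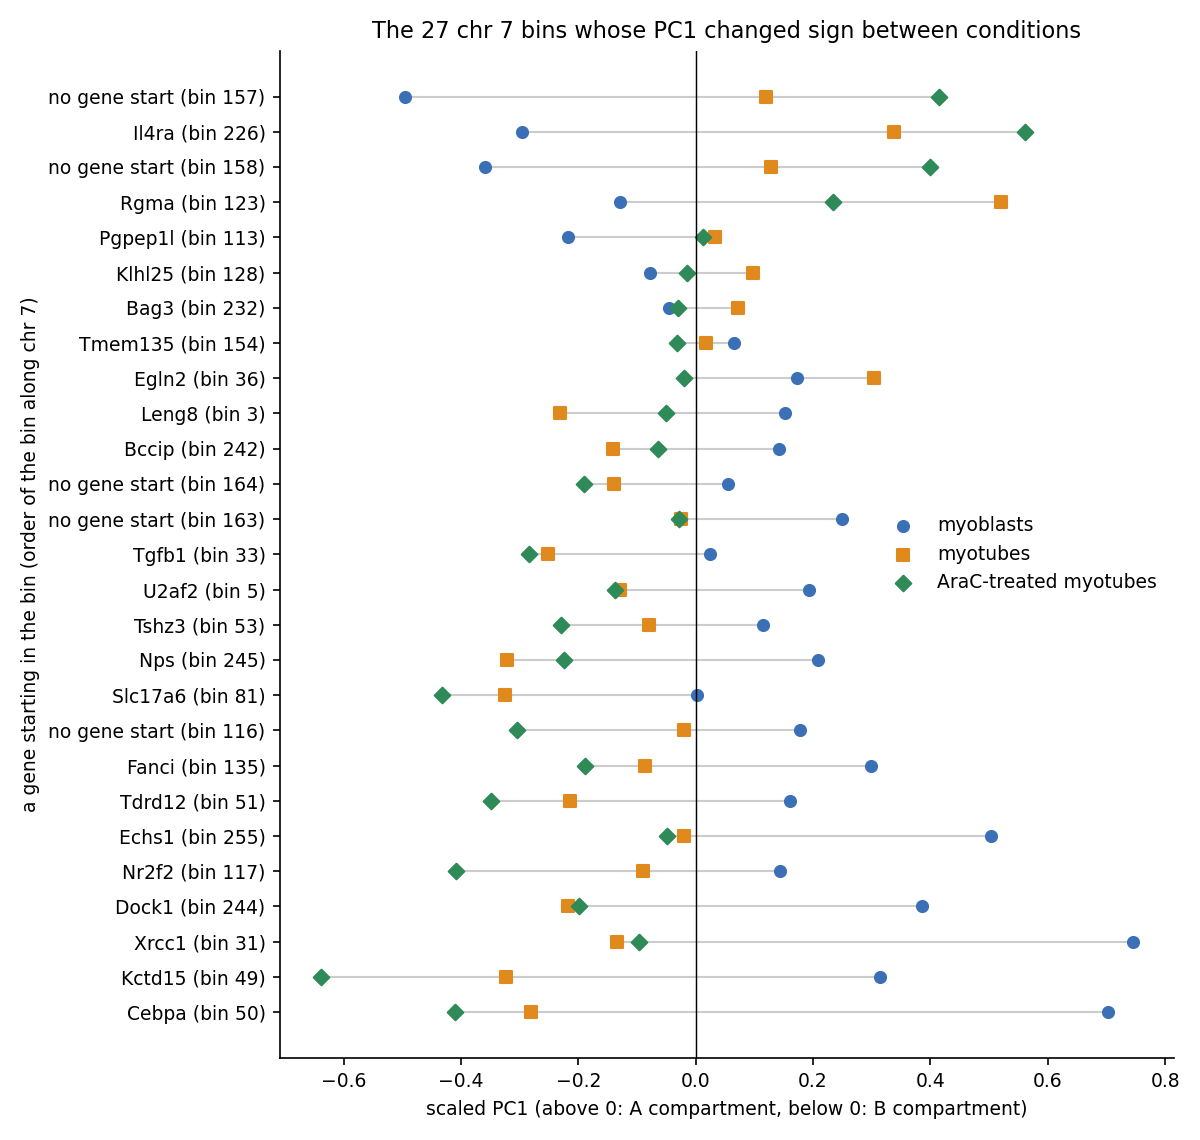
Scaled PC1 in myoblasts, myotubes and AraC-treated myotubes for the 27 chr 7 bins whose sign differed between conditions, ordered by the difference between AraC-treated myotubes and myoblasts and labelled by a gene that starts in the bin. Most points of the myotube conditions lie left of 0 and close to each other, while the bin of Il4ra and the pair within Dlg2 lie right of 0.

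Myotubes and AraC-treated myotubes differed in sign in 4 bins (1.51%, beside 5.1% of autosomal bins). All 4 were in A in myotubes and B in AraC-treated myotubes (beside 3.05%), and 0 were the reverse (beside 2.05%). They were the bins of Egln2, an oxygen sensor (0.304 and -0.0199 in this pair), Klhl25 (0.0976 and -0.0146), Tmem135 with Fzd4, a Wnt receptor (0.0178 and -0.0322), and Bag3, a chaperone partner at the Z-disc (0.0722 and -0.0309). In 3 of the 4 both values were within 0.1 of 0. The bin of Cdkn1c was the only bin higher by 0.5 or more in AraC-treated myotubes (beside 2.16% of autosomal bins), and no bin was lower by as much (beside 0.381%). With signs relative to the median the count was 14, of which 0 were among the 4.

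A second measure, the profile correlation, compared all values of a bin with the other chr 7 bins between conditions and needs no principal component. Its median over the 265 bins was 0.902 for myoblasts and myotubes, 0.876 for myoblasts and AraC-treated myotubes and 0.958 for myotubes and AraC-treated myotubes. It was below 0 in 8, 9 and 4 bins (beside 3.26%, 5.8% and 1.16% of all autosomal bins). The bin of Cebpa had the lowest value in both comparisons with myoblasts, -0.45 and -0.52, but 0.91 between the myotube conditions. The bin of Xrcc1 had -0.34 and -0.25, the bin of Il4ra 0.052 and -0.43, and the bin of Dock1 -0.061 and -0.079. In the bin of Adamtsl3 at chr7:82000001-82500000, which remained in A (0.514, 0.0266 and 0.374), it was -0.33 between myoblasts and myotubes. The bin of Cdkn1c, with the largest difference of PC1, was in A in all 3 conditions and had profile correlations of 0.54 and 0.52.

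Base composition and gene density varied with PC1 over the 265 bins. Pearson r of PC1 with GC content was 0.553 at day 0, 0.521 at day 3 and 0.509 at day 7, and with CpG observed over expected 0.535, 0.486 and 0.446. The number of HindIII sites, on which the assay depends, varied the other way at r = -0.463, -0.438 and -0.424, with a median of 144 sites in bins always in A and 161 in bins always in B. Of 56 bins with a GC content below 40%, 4 were in A in myoblasts, whereas of 29 bins at 48% or above 24 were in A. Bins that changed sign had a median GC content of 44.8%, between the medians of bins always in A (45.7%) and always in B (41.4%). The number of TSSs, which set the sign of PC1, had r = 0.334, 0.321 and 0.297. Without olfactory and vomeronasal receptor genes the coefficients were 0.490, 0.467 and 0.441. The part of GC content or of restriction sites in PC1 was not tested.

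**Figure D4:**
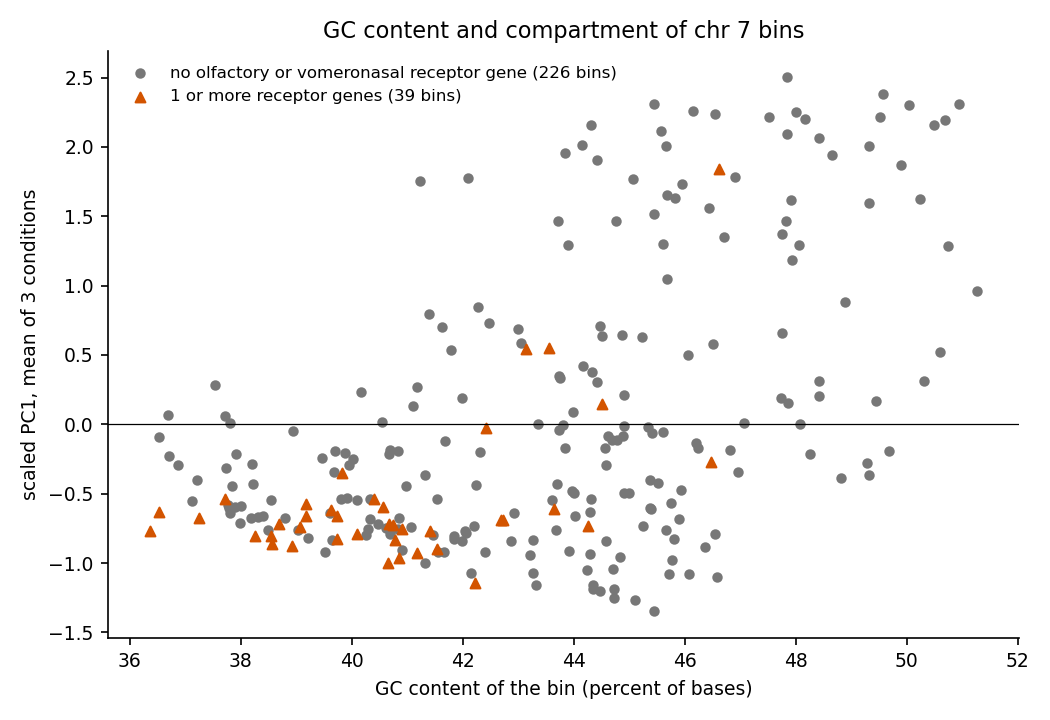
Mean scaled PC1 over the 3 conditions against GC content (percent) for the 265 chr 7 bins, with triangles for the 39 bins that hold at least 1 olfactory or vomeronasal receptor gene. Bins of low GC content lie almost all below 0, bins at higher GC content spread over the whole range of PC1, from -1.35 to 2.50, and 34 of the 39 receptor bins were in B in all 3 conditions.

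Long runs of a kind had like profiles over the whole length of the chromosome. This largely follows from their definition, by the sign of PC1 of the same correlation coefficients. The mean correlation coefficient was positive for all 28 pairs of long A runs and all 55 pairs of long B runs and negative for all 88 pairs of a long A and a long B run, in each condition. Between A bins over 10 Mb apart it averaged 0.0535 at day 0, 0.0965 at day 3 and 0.0689 at day 7, between B bins 0.0499, 0.0890 and 0.0707, and between A and B bins -0.0310, -0.0705 and -0.0564. The runs of Ryr1 and Mylpf, 95.5 Mb apart, had 0.113, 0.276 and 0.197, the highest mean of any pair of long A runs in myotubes. The run of Mef2a and the run at chr7:79500001-84500000 with Blm, a DNA helicase, had 0.0376, 0.0518 and 0.0381, the lowest of the A pairs in each condition. The scale of coefficients differs between matrices for reasons that were not tested, so that only the order within a condition is read here.

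**Figure D5:**
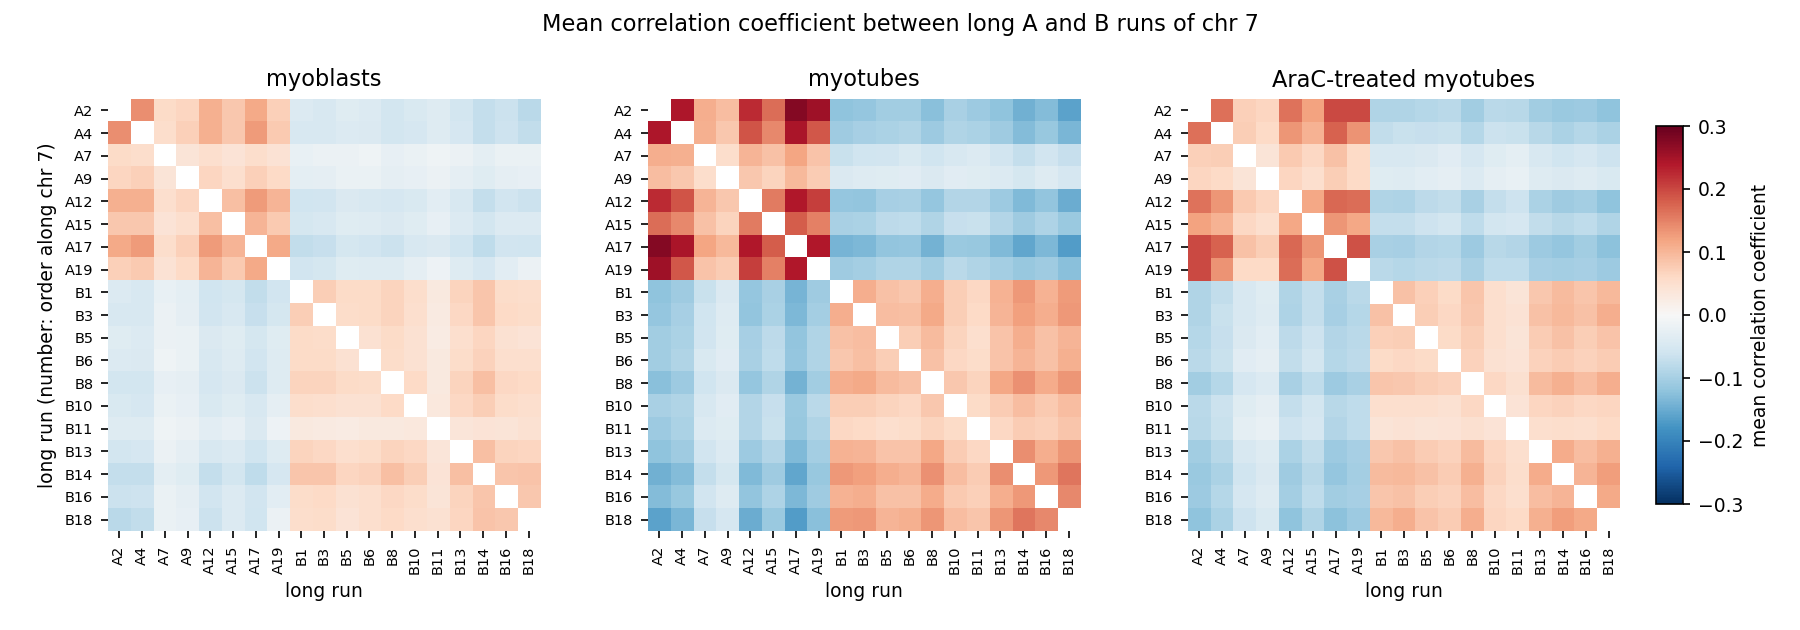
Mean correlation coefficient between the 19 long runs of chr 7 (8 A runs, then 11 B runs, numbered in order along the chromosome) in each condition, on a shared colour scale from -0.3 to 0.3. A-A and B-B blocks are above 0 (red) and A-B blocks below 0 (blue) in all 3 conditions. These signs largely follow from the definition of the runs by PC1. A7 (Mef2a) and A9 (Blm) are paler than the other A runs.

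The compartment of a chr 7 bin could also be read from other chromosomes. The trans score of a bin was its mean correlation coefficient with A bins minus that with B bins of the other autosomes (4462 bins). Over the 265 bins it correlated with PC1 at r = 0.990 at day 0, 0.997 at day 3 and 0.995 at day 7. Both measures come from the same matrices, whose values already compare whole profiles. No bin in B had a trans score above 0 in any condition, while 23 of 101 A bins in myoblasts, 15 of 90 in myotubes and 15 of 86 in AraC-treated myotubes had one below 0. Among the 23 were the bins of Dock1, Nr2f2 and Tgfb1, whose PC1 went from A in myoblasts to B. The highest score was that of the Mylpf bin in myoblasts and myotubes (0.177 and 0.326), and the lowest that of the Tcerg1l bin in all 3 (-0.0976, -0.214 and -0.165). The bin of Cdkn1c was at 0.0177, 0.177 and 0.220. The bin of Il4ra was at -0.0290, 0.0228 and 0.0352. In the pair of bins within Dlg2 the score stayed below 0 in myotubes (-0.0237 and -0.0240), where PC1 was above 0, and was near 0 in AraC-treated myotubes (0.00586 and -0.000224).

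The partners of chr 7 outside the chromosome were sorted by compartment. A partner here is a bin with a similar interaction profile, which need not be a bin in contact. For each of the 19 long runs, the 50 bins of other autosomes with the highest mean coefficient were all in A for an A run and all in B for a B run, in each condition. This largely follows from calling A and B by the sign of PC1 in the same matrices. The A bins of chr 7 had their highest mean with A bins of chr 11 in all 3 conditions (0.0909, 0.170 and 0.129), followed in AraC-treated myotubes by chr 15 (0.0984) and chr 9 (0.0980). PC1 also explained more variance on chr 11 than on any other autosome (69.2%, 90.3% and 86.7%). The part of this in the high mean was not tested. The first partner of the Mylpf run was chr10:80500001-81000000, a bin rich in genes such as Dot1l, a histone methyltransferase, at 0.265, 0.430 and 0.329. The runs with Tead1 and Pold3 shared their first partner, chr15:99500001-100000000 with Smarcd1, a subunit of chromatin remodelling complexes. Distal B runs had many partners on chr 2, which held 7.89% of the other autosomal bins. Of the 50 first partners, 19 (38%) lay there for the run of Tcerg1l and 18 (36%) for the longest B run, and the first partner of both was chr2:178500001-179000000, without a TSS. For the first B run of the chromosome, chr7:10000001-15000000, the commonest partner chromosome was chr 11 with 8 of 50 (16%).

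Set beside the other 18 autosomes, chr 7 had the most protein-coding TSSs per bin (7.18, with a median of 3.95 among the others), yet the correlation of PC1 with the number of TSSs ranked 16th of 19 in each condition. Its share of bins of opposite sign ranked 4th for myoblasts and myotubes (9.43%, others 2.86% to 11.1%), 10th for myoblasts and AraC-treated myotubes (others 2.86% to 17.7%) and last for myotubes and AraC-treated myotubes (1.51%, others 2.29% to 10.3%). No test of these ranks was made, and chromosomes differ in length and number of bins.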

How the data were processed

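Hi-C was carried out on C2C12 myoblasts, myotubes and AraC-treated myotubes (6 libraries, 2 per condition). The authors mapped and filtered the reads with bowtie and HiCUP and built matrices with HOMER. The deposited files hold a score for each pair of 500 kb bins, the Pearson correlation coefficient of their normalized interaction profiles, on mm10, with replicates pooled. Read depth per bin is not held in these values, so no counting error could be given.

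With Python 3.11.15, numpy 2.4.6 and scipy 1.17.1 (figures with matplotlib 3.10.9), the chr 7 block of each matrix was centred by column and its first component taken. A large difference of scaled PC1 was set at 0.5, and a long run at 5 bins. TSSs, GC content, CpGs and HindIII sites came from GRCm38. The scripts were tested on simulated data. The bins named were the 5 largest differences of each direction in each pair, runs of changed bins, the longest runs, the highest and lowest bins and the lowest profile correlations. Genes came from these bins and from lists of muscle, cell cycle, imprinted, neuronal and family genes. Members, lists and rules were chosen with earlier results of these data known. Alternatives to centring, scaling, the zero of PC1, its minimum size, the partner bins, near-diagonal values and the kind of correlation were computed.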

Additional observations from a re-analysis of the deposited data

How the results depend on the processing

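Of 72 alternative values for single named bins, the direction was kept in all 72 and the value stayed close in 69. The exceptions came with a component from other autosomes, which put the difference between myotubes and myoblasts at 1.10 for the Cdkn1c bin and 0.456 for the bin within Dlg2, and that between AraC-treated myotubes and myoblasts at 0.673 for the latter. Of 99 alternative values for the counts, shares and correlations, 71 stayed close to the value reported. The pairs are given in the order of myoblasts and myotubes, myoblasts and AraC-treated myotubes, and both myotube conditions. With a component from other autosomes, bins of opposite sign numbered 20, 19 and 5, which counted as close. Only 16, 15 and 3 of these were among the bins reported. Bins of opposite sign numbered 14, 16 and 12 without centring, of which only 5, 7 and 0 were among the 25, 25 and 4 reported, and 2, 5 and 0 with the minimum size of PC1. Relative to the chromosome median they numbered 12 in the first pair and 14 in the last. The share of bins in A was 27.9% in myoblasts and 26.4% in myotubes without centring, and 49.8% in every condition relative to the median, by construction. Spearman's coefficient of PC1 between the myotube conditions was 0.981. Profile correlations below 0.2 were found in 19 bins in the second pair and 7 in the last, and with other autosomes as partners 2 were below 0 in the last. In the order of conditions, PC1 and the trans score correlated at 0.999845, 0.999848 and 0.999883 with a component from other autosomes, which uses the same values, at 0.987, 0.996 and 0.993 with columns divided by their SD, and at 0.980, 0.990 and 0.985 by Spearman's coefficient. With values within 2 Mb replaced, it was 0.996 at day 3 and 0.994 at day 7. The cause of these differences was not tested. No paired analysis was possible because the replicates were pooled before deposit. Bins of 500 kb cannot place a border more finely, and the values carry no depth.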
